A study of Mus musculus with 20 samples.

Results

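The genes of 9 proteins used to recognise mouse hematopoietic stem cells (HSCs), Kit, Tek, Cxcr4, Procr, Slamf1, Cd48, Cd34, Ly6a and Fgd5, were followed in reduced representation bisulfite sequencing (RRBS) of sorted HSCs. RRBS reads the methylation of cytosines in fragments of genomic DNA, usually cut by MspI at CCGG, so that CpG-rich DNA is covered best. The genome was given in bins of 100 bp, and every bin from 5000 bp upstream of the RefSeq gene start to the end of the gene was taken, which gave 336 of 1201951 bins. Bins within 1000 bp of the gene start were called promoter, bins from there to the gene end gene body, and bins further upstream flank. This left 52 promoter, 256 gene body and 28 flank bins. All distances below run from the gene start to the middle of the bin and are positive in the direction of transcription.

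The samples were 20 HSC preparations from female C57BL/6J mice that were 3 months old at the start and received 0, 2, 4 or 10 cycles of 5-fluorouracil (5-FU), a drug that kills cycling blood cells, at 150 mg per kg with 3 weeks between doses. The groups were 0x with 4 samples, 2x with 6, 4x with 4 and 10x with 6. All were of genotype C57BL/6 and sorted 1 month after the end of treatment. By the study, the animals, 0x controls included, had reached early middle age by the end of the experiment. By the methods of the study, HSCs were sorted from bone marrow as lineage-negative, cKit+, Sca1+, CD34-, Flk2- and CD150+ cells, whereas the labels give the tissue as blood. Kit, Ly6a (Sca-1), Cd34 and Slamf1 (CD150) were therefore genes of the sort gate itself, and cells were selected on their proteins in all 4 groups alike. The labels do not say that the samples came from separate mice, so p-values measure only the spread between samples. Each value is a percentage without read numbers, so the depth behind it is unknown and no counting interval can be given.

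Methylation of CpG-rich DNA around a transcription start is usually low in cells that can use the gene, and the bodies of genes are usually methylated. Kit is the receptor for stem cell factor and Tek (Tie2) the receptor for angiopoietins, both tyrosine kinases that act in HSC maintenance. Cxcr4 is the receptor for Cxcl12 and holds HSCs in the bone marrow. Procr (EPCR) binds protein C, Slamf1 (CD150) and Cd48 are neighbouring genes of the SLAM family of immune receptors, Cd34 is a sialomucin, Ly6a encodes the GPI-anchored Sca-1, and Fgd5 is a guanine nucleotide exchange factor of the FGD family, an intracellular protein whose locus is used to mark HSCs.

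The deposited bins differ in how much of their variation was measured, because the study gave a bin missing in a sample the group's mean. Bins were sorted by whether any group held the same value, other than 0 or 100%, in more than 1 of its samples. Such a repeated value was found in 140 of the 336 bins (41.7%). Another 188 bins held none but had at least 1 group at 0% or 100% in all its samples, where filled and measured values look the same. In 8 bins (2.38%) every group varied and no value was repeated, against 84131 of all 1201951 bins (7.0%). Filling of just 1 sample leaves no repeat, so it could have gone unseen there too. These 8 bins carried the tests, and the other bins are described apart.

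**Figure D1:**
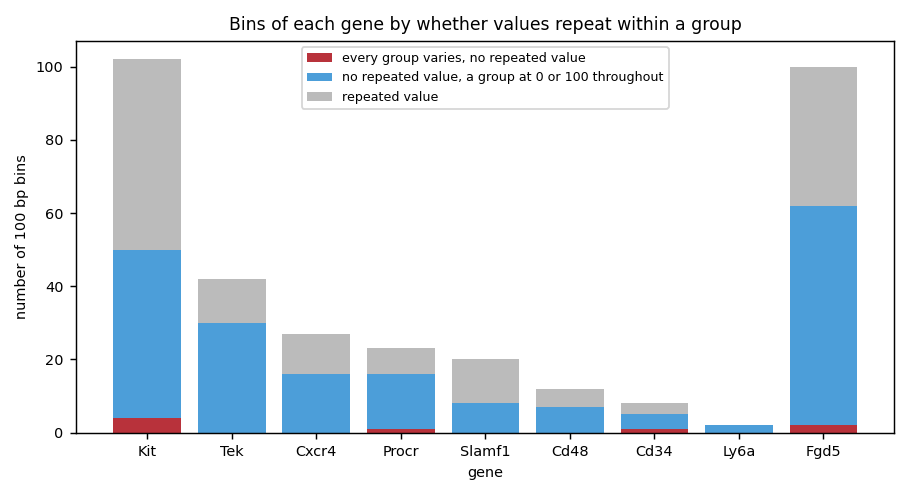
Number of 100 bp bins of each gene (x axis) by class: every group varies with no repeated value (red), no repeated value but a group at 0 or 100% throughout (blue), and a repeated value (grey). Kit with 102 bins and Fgd5 with 100 hold most of the bins, and Ly6a holds 2.

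Coverage was uneven between the genes. Kit (chr5:75574987-75656722, plus strand, GRCm38/mm10) had 102 bins, Fgd5 (chr6:91978827-92076005, plus) 100, Tek (chr4:94739086-94874976, plus) 42, Cxcr4 (chr1:128588199-128592299, minus) 27 and Procr (chr2:155751125-155755478, plus) 23. Slamf1 (chr1:171767131-171801184, plus) had 20 bins, Cd48 (chr1:171681245-171705258, plus) 12 and Cd34 (chr1:194938821-194961292, plus) 8. Ly6a (chr15:74994877-74998031, minus) had only 2 bins, at -4019 and -2819 bp, and none in its promoter or body. Both Ly6a bins were listed at 0% in all 20 samples, and both lie inside the annotated gene Gm28068. The 5 body bins of Cd34 also lie inside another annotated gene, Gm16897. Of the 336 bins, 226 had their middle in an intron, 45 in a coding exon, 20 in an untranslated exon and 45 upstream of the gene.

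The sequences below, read from GRCm38 on the plus strand with each CpG in capitals, show what the tested bins offer to the assay. They are 7 of the 8 bins in which every group varied, followed by a Cd48 promoter bin that is described further on. The eighth tested bin, in the first exon of Cd34 at +129 bp (chr1:194938900-194938999), is mostly untranslated and is given by its counts only, 15 CpGs and 2 CCGG sites.
Kit promoter, -437 bp, chr5:75574500-75574599: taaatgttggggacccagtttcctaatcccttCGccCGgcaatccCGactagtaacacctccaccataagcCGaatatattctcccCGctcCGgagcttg
Kit intron, +14463 bp, chr5:75589400-75589499: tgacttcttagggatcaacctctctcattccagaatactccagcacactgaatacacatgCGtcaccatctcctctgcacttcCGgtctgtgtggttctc
Kit intron, +29563 bp, chr5:75604500-75604599: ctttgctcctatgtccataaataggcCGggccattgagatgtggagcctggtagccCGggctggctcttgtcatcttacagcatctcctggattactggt
Kit intron, +32563 bp, chr5:75607500-75607599: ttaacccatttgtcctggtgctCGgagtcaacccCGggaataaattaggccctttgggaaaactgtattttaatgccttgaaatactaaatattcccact
Procr coding exon, +3225 bp, chr2:155754300-155754399: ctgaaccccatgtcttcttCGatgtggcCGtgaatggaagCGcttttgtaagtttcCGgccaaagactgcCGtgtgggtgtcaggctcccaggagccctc
Fgd5 flank, -1877 bp, chr6:91976900-91976999: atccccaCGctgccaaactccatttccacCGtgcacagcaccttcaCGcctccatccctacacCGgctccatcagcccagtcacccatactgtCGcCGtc
Fgd5 coding exon, +9823 bp, chr6:91988600-91988699: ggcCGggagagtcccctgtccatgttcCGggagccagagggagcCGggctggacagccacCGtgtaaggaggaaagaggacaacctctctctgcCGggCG
Cd48 coding exon, +905 bp, chr1:171682100-171682199: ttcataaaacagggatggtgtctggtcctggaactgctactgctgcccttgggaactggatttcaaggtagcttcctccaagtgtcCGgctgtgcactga

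The Kit intron bins hold 2 CpGs each and the Cd48 bin 1, whereas the Fgd5 bins hold 6 each. A level in a bin of 1 or 2 CpGs rests on few cytosines, whatever its depth. Each printed bin contains at least 1 CCGG, and 256 of the 336 bins (76.2%) do.

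The promoters also differed in CpG content. Windows of 300 bases around annotated starts (RefSeq, GRCm38.p6, 250 before to 50 after) were found for 8 of the 9 genes, with 2 windows for Kit. The Fgd5 window held 37 CpGs, more than 94.4% of all 32851 windows, and the Kit windows held 20 and 21, Cxcr4 20 and Procr 13. Cd48 and Cd34 held 7 each, the median of all windows, Slamf1 4 and Tek 3. The windows of Cd48, Tek, Fgd5 and Procr lay at curated starts downstream of the gene starts used for the bins, in Cd48 by 747 bp. The motif CCGG, which reads the same on both strands, was in every one of these 9 windows and in 52.8% of all windows. The 250 bases before the gene start of Kit and of Slamf1 are shown as a CpG-rich and a CpG-poor example, read in the direction of transcription with each CpG in capitals.
Kit, chr5:75574737-75574986, plus strand: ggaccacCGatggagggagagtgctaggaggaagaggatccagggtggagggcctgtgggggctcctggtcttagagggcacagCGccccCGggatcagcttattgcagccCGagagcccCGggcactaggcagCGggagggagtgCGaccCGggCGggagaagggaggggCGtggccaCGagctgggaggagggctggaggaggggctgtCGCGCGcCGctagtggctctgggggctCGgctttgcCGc
Slamf1, chr1:171766881-171767130, plus strand: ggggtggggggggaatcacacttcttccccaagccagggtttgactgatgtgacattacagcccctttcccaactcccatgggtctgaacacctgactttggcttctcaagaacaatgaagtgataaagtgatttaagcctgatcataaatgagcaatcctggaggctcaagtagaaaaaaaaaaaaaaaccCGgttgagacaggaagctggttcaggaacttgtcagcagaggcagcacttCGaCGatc

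In HSCs that received no 5-FU, most promoter bins of these genes were low in methylation and most of their body bins high. Of the 52 promoter bins, 46 (88.5%) had a 0x mean under 20%, and of the 256 body bins 207 (80.9%) had a 0x mean over 80%. The flanks were mixed, with 17 of 28 bins over 80% and 8 under 20%. The 75 bins with a 0x mean under 20% held a median of 4 CpGs, and the 225 bins over 80% a median of 2. Over all genes, the promoter mean of all deposited bins had a median of 20.5% in 0x (27230 genes) and the gene body mean a median of 87.3% (27919 genes).

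By gene, the promoter mean over all deposited bins in 0x, filled values included, was lowest in Procr (0.00854% ± 0.0171, SD, n = 4), Cd34 (0.111% ± 0.128) and Kit (0.908% ± 0.974). Cxcr4 stood at 1.94% ± 2.99, Fgd5 at 3.14% ± 2.35 and Slamf1 at 6.44%. The ranges of Kit, Cxcr4 and Fgd5 over the 4 samples overlapped. Tek stood at 16.5% and Cd48 at 37.4% ± 4.15. The values of Slamf1 and Tek were the same in all 4 samples of 0x, because every bin behind them held 1 value in that group, so they carry no measured spread. Cd48 had the highest promoter mean of the 8 genes with a promoter bin. RefSeq also annotates curated Cd48 transcripts that start 747 bp further downstream than the gene start used here. The Cd48 promoter bin at -995 bp had a 0x mean over 50%, and those from +205 to +905 bp had means of at most 49.4%.

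Along the genes, the stretch of bins around the start with 0x means of at most 50% was followed, filled values included. It ran past the promoter window downstream in Kit, Cxcr4 and Tek, and upstream in Cxcr4 and Procr. In Kit the bins from -437 to +4063 bp had 0x means of 0 to 29.0%, with the first bins over 50% at -1337 and +6063 bp. In Cxcr4 the bins from -1451 to +1349 bp had 0x means of at most 50%, and methylation passed 50% at -1751 and +2449 bp. In Tek the bins from -536 to +1264 bp had 0x means of at most 39.6%, and the next bin, at +7664 bp, was over 50%. The Tek bins at -536, -436 and +1264 bp held repeated values. In Procr the low bins reached from -1775 to +525 bp with a highest 0x mean of 0.0598%, and in Fgd5 from -477 to +723 bp with a highest of 26.7%. In Cd34 only the 3 promoter bins at +29 to +229 bp were low, and the next bin, at +17129 bp, was methylated. The gaps between bins leave the edges of these stretches unplaced.

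**Figure D2:**
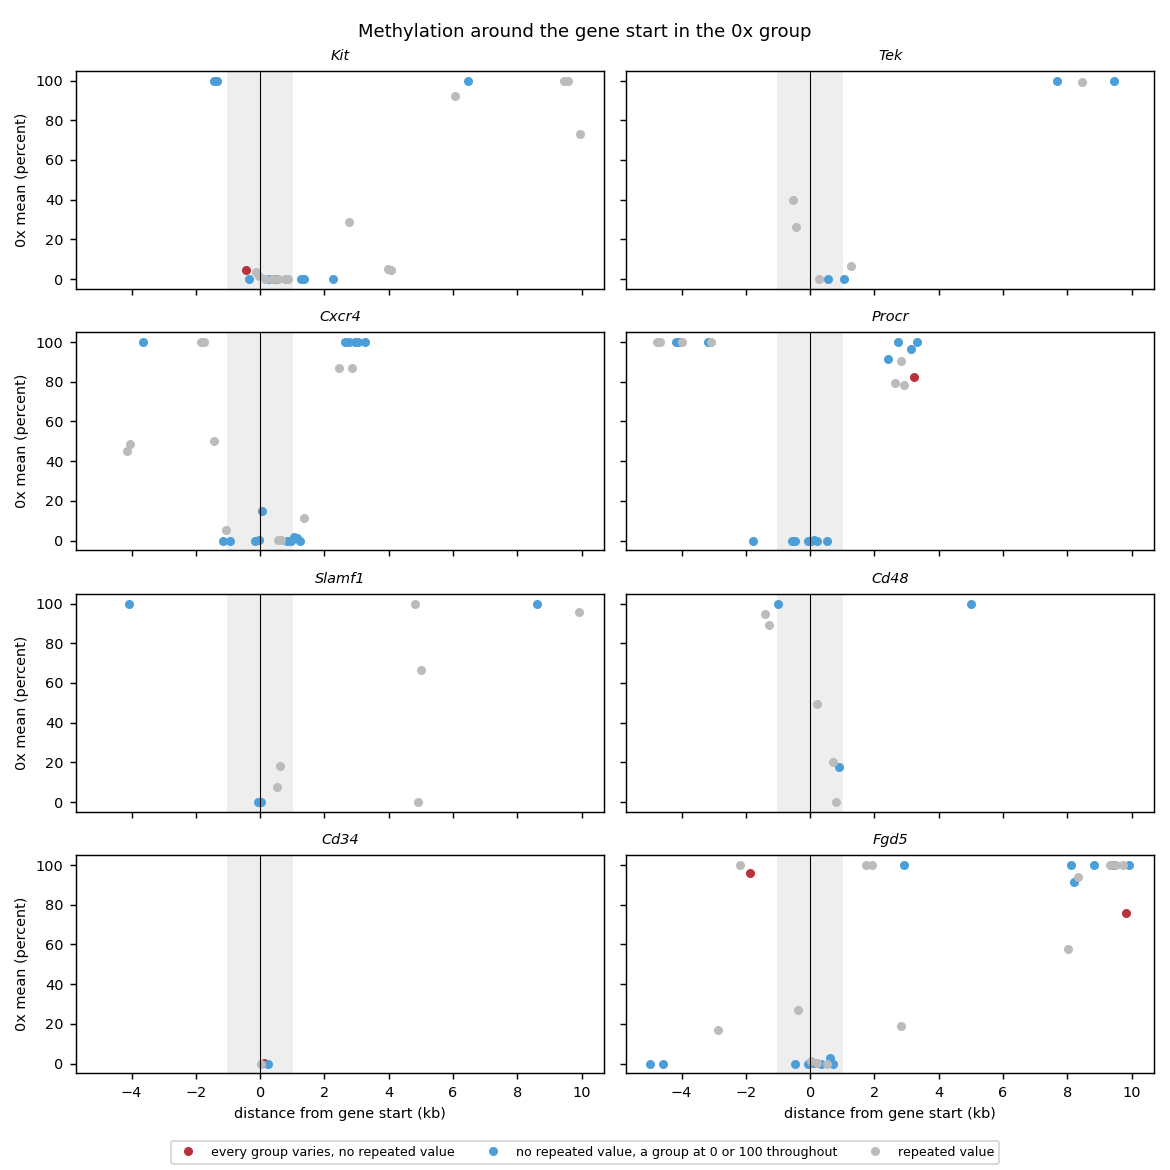
Mean methylation of the 4 samples of 0x (y axis, percent) against distance from the gene start (x axis, kb) for 8 genes, to 10 kb downstream, with the promoter window in grey shading and the bins coloured by class as in the plot of bin classes. Promoter bins lie near 0% in most genes, Cd48, Tek and Fgd5 have promoter bins between 20 and 80%, and body bins lie mostly at or near 100%.

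Promoter levels were also read at genes of HSCs and of committed cells, but they cannot tell whether the sort succeeded. Of the HSC markers Kit, Slamf1, Procr, Fgd5 and Tek, every promoter mean in 0x was under 20%, and Ly6a had no promoter bin. Such a level is common, as the median over all 27230 genes was 20.5%. The promoter of Cd34, whose protein the gate excludes, was low too, at 0.111%. Of the markers of cells outside the gate, the promoters of the T cell genes Cd3d, Cd3e and Cd3g were listed at 100% in 0x and the neutrophil gene Elane at 93.8%, whereas Cd79b stood at 19.4% and Flt3 at 3.41%. Those means include filled values.

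The question put to these genes was whether repeated 5-FU cycles left a change in their methylation. Each treated group was compared with 0x by limma on the percentages, and a slope over 0, 2, 4 and 10 cycles was fitted with all 20 samples. A bin was called at an adjusted p (Benjamini-Hochberg over all bins tested) under 0.05 and a difference of at least 10 points. None of the 8 bins was called in 2x, 4x or 10x or in the slope, and limma gave no unadjusted p under 0.05 in any of these 32 tests. Few bins were called anywhere in the genome: 0.00357% of 84131 in 2x, 0.00713% in 4x, 0.0131% for 10x and 0.00119% in the slope. At an unadjusted p under 0.05 the shares were 3.79%, 3.69%, 6.23% and 3.56%. Beside shares this low, a count of 0 among 8 bins is no result about these genes.

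**Figure D3:**
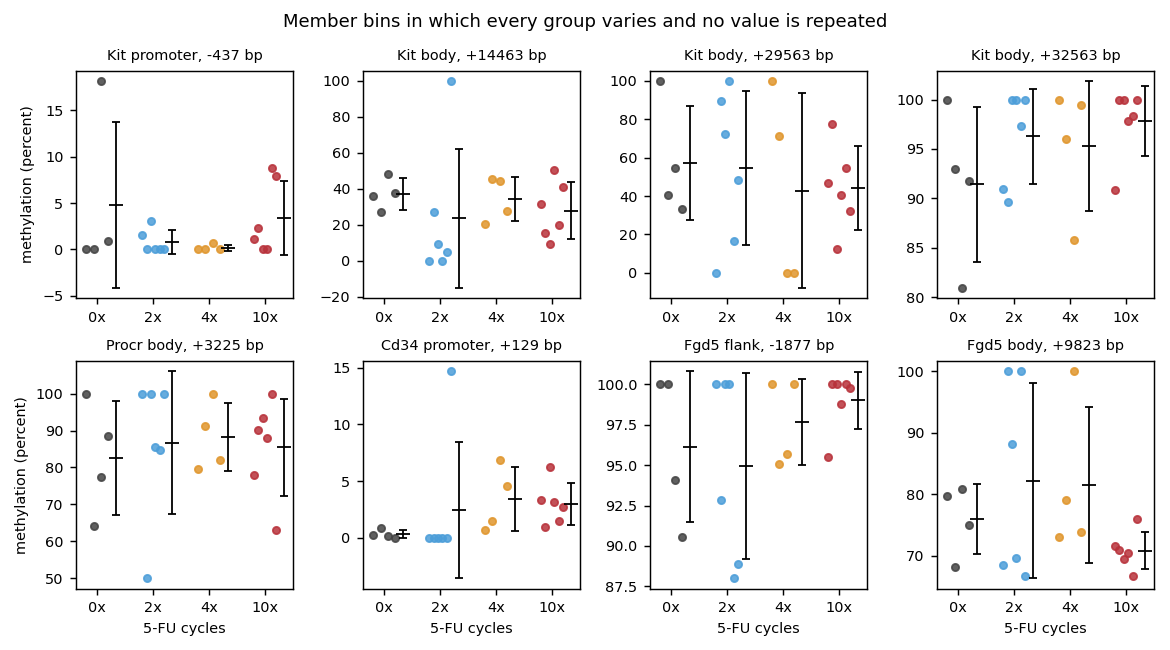
Methylation (y axis, percent, with its own scale in each panel) of the 8 tested bins in each sample, by number of 5-FU cycles (x axis). Points are samples, and the bar beside each group is the mean with its SD. Treated groups overlap 0x in every panel except 10x in the Cd34 promoter bin, where all 6 samples lie above the 4 of 0x.

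The Cd34 promoter bin at +129 bp had the lowest p of the 8 bins in 10x. Cd34 marks progenitors and is absent from the surface of the sorted cells. In 0x the 4 samples stood at 0.272, 0.883, 0.174 and 0%. In 2x the lowest and the median were 0% and the highest 14.7%, so 5 samples were at 0% and 1 was the highest of all 20. In 4x the samples stood at 0.733, 1.52, 6.88 and 4.59%. In 10x the lowest was 0.986%, the median 2.95% and the highest 6.20%. Every sample of 10x was above every sample of 0x, which held for 0.899% of the 84131 bins. The difference of 10x from 0x was 2.65 points (SE 1.32), with an adjusted p of 0.828 in limma. The bin was also the only tested promoter bin of Cd34, and in the fit of gene promoters the same difference had an SE of 1.03, an unadjusted p of 0.0295 and an adjusted p of 0.761. In that fit an unadjusted p under 0.05 with higher values in 10x was found for 2.68% of 13512 promoters. The differences of 2x (2.12 points, SE 3.14) and 4x (3.10 points, SE 1.85) had unadjusted p of 0.517 and 0.136 in limma. Without the 2x sample labelled 18, the highest one, the 2x difference was -0.332 points, and without the 4x sample labelled 19 the 4x difference was 1.95 points. Among samples labelled 01 to 12 the difference of 10x from 0x was 1.57 points, and among those labelled 13 to 34 it was 3.31 points, with 2 samples of 0x in each series.

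In Kit the promoter bin at -437 bp was close to 0% in most samples of each group. The samples of 0x stood at 0, 0, 18.2 and 0.938%, those of 2x had a median of 0% and a highest of 3.09%, those of 4x stood at 0, 0, 0.658 and 0%, and those of 10x had a median of 1.69% and a highest of 8.82%. One 0x sample was the highest of all. The 10x difference was -1.42 points (SE 3.91). Without that 0x sample, labelled 13, the sign turned and the 10x difference was 3.05 points. The slope of the Kit promoter without it was 0.325 points per cycle in place of 0.0577, and its adjusted p in limma was 0.976.

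The Kit intron bins varied widely between samples of a group. At +14463 bp the 0x samples stood at 35.9, 26.9, 48.0 and 37.9%. The 2x samples had a lowest of 0%, a median of 7.26% and a highest of 100%, the 4x samples stood at 20.3, 45.4, 44.3 and 27.8%, and the 10x samples had a lowest of 9.12%, a median of 25.9% and a highest of 50.2%. Of the 6 samples of 2x, 4 lay below every 0x sample, and the sample labelled 18 was at 100%. The 2x difference was -13.6 points (SE 18.7), and without that sample it was -28.9 points, with an adjusted p of 0.675 in limma.

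At +29563 bp values ran over most of the scale in each group. The 0x samples stood at 100, 40.7, 54.8 and 33.3%, the 2x samples ran from 0 to 100% with a median of 60.2%, the 4x samples stood at 100, 71.4, 0 and 0%, and the 10x samples ran from 12.2 to 77.8% with a median of 43.7%. The 10x difference was -13.1 points (SE 15.1), and 1.16 points without the 0x sample labelled 01. At +32563 bp methylation was high throughout. The 0x samples stood at 100, 93.0, 80.9 and 91.7%, the medians of 2x and 10x were 98.6 and 99.1%, and the 4x samples stood at 100, 96.0, 85.8 and 99.4%. The 10x difference of 6.42 points (SE 3.48) had an unadjusted p of 0.0975 and an adjusted p of 0.841 in limma. It was 12.7 points among the samples labelled 13 to 34 and -1.07 points among those labelled 01 to 12, and without the 0x sample labelled 13 it was 2.92 points.

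In Procr, the coding bin at +3225 bp had 0x samples at 100, 64.1, 77.4 and 88.6%. The medians were 92.8% in 2x and 89.1% in 10x, the 4x samples stood at 79.6, 91.2, 100 and 82.1%, and the groups overlapped. The differences were 4.17 points (SE 10.9) in 2x, 5.70 (SE 8.25) in 4x and 2.96 (SE 8.43) in 10x, each smaller than its SE. Without the 0x sample labelled 02, the lowest of its group, all 3 turned negative, at -1.97, -0.446 and -3.18 points, and without the 2x sample labelled 04 the 2x difference was 11.5 points. The 2x difference was -7.04 points among the samples labelled 01 to 12 and 9.54 points among those labelled 13 to 34.

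In Fgd5, the flank bin at -1877 bp was methylated in all samples, with 0x at 100, 100, 94.1 and 90.5%, a median of 96.4% in 2x, 4x at 100, 95.1, 95.7 and 100%, and a median of 99.9% in 10x. The coding bin at +9823 bp had 0x samples at 79.8, 68.2, 80.8 and 75%. The 2x samples ran from 66.7 to 100% with a median of 78.9%, the 4x samples stood at 73.1, 79.1, 100 and 73.8%, and the 10x samples ran from 66.7 to 76% with a median of 70.7%. The 10x samples overlapped 0x. The difference was -5.09 points (SE 2.73, adjusted p = 0.837 in limma), and it was -7.66 points without the 0x sample labelled 02 (adjusted p = 0.465).

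By region, 2 promoters (Kit and Cd34), 1 flank (Fgd5) and 3 gene bodies (Kit, Procr and Fgd5) could be tested, and none was called in limma in any of 24 tests. Except for the Kit body, each of these regions rested on 1 tested bin. Their differences repeat those of the bins above and do not speak for the whole region. Regions had no minimum difference. Over all regions, 1 promoter (0.0074%) and 6 gene bodies (0.0469%) were called in 10x, 1 flank (0.018%) in 4x, 1 gene body (0.00782%) in 2x and 1 (0.00782%) in the slope, and the share was 0% in the other comparisons. The Kit body, the mean of its 3 intron bins, stood at 61.9% ± 11.7 (SD, n = 4) in 0x, 58.1% ± 19.6 (n = 6) in 2x, 57.5% ± 17 (n = 4) for 4x and 56.6% ± 8.53 (n = 6) for 10x. The differences from 0x were -3.83 points (SE 10.1) in 2x, -4.39 (SE 9.25) in 4x and -5.31 (SE 5.89) for 10x. Without the 0x sample labelled 01 these became 1.74, 1.18 and 0.259 points, with the sign turned. Tek, Cxcr4, Slamf1, Cd48 and Ly6a had no bin in the tested set.

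Outside the tested set, 46 of the 188 bins without a repeated value varied between samples, 12 in promoters, 2 in flanks and 32 in gene bodies. Most were promoter bins at 0% with some samples above it, or body bins at 100% with some samples below it. The 2x group stood at 0 or 100% throughout in 40 of them and 0x in 25, against 15 for 4x and the same number for 10x. These bins and those of the next paragraphs were chosen after their values were seen, and a group at 0 or 100% throughout may hold filled values.

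In promoters, some samples stood above the 0% of the others. In the Cxcr4 promoter at -51 bp, with 13 CpGs, all 2x samples were at 0%, the 0x samples at 0, 0.184, 0 and 0%, the 4x samples at 3.29, 3.70, 0 and 0%, and the 10x samples had a median of 2.43% and a highest of 14.9%. At -151 bp in the same promoter 2 samples of 4x stood at 38.6 and 100%, and the other samples at 0%. At +49 bp, 1 sample of 0x stood at 50% and another at 9.78%, with no sample of the treated groups above 3.41%. In the Fgd5 promoter at -477 bp, with 1 CpG, 0x and 2x were at 0%, the 4x samples at 25, 34.3, 0 and 0% and the 10x samples at 0, 26.2, 13.7, 12.7, 0 and 0%. Samples at 0% were thus found in every group of each of these promoter bins.

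In gene bodies, the Kit intron bin at +22563 bp stood at 100% in all samples of 0x and 2x, the 4x samples at 100, 91.0, 94.3 and 100% and the 10x samples at 100, 57.7, 57.6, 63.4, 50 and 100%. At +10163 bp, also in a Kit intron, 0x was the group that varied, at 38.1, 100, 84.6 and 100%, and all treated samples stood at 100%. The Tek intron bin at +23564 bp had the same form, with 0x at 84.9, 100, 55 and 100%. In the Procr coding bin at +2425 bp the 0x samples stood at 100, 100, 75.9 and 90.2%, 2x at 100%, 4x at 92.8, 81.2, 100 and 100% and 10x at 100, 100, 100, 79.4, 0 and 50%. In the Slamf1 intron bin at +11019 bp, 0x and 2x were at 0%, the 4x samples at 15.8, 6.11, 46.2 and 0% and the 10x samples at 0, 0, 0, 5.14, 11.3 and 17.9%. In each of these bins at least 1 treated sample and 1 sample of 0x held the same value, so the groups overlapped.

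Fgd5 had body bins of both forms. In the coding bin at +9423 bp, 0x, 2x and 4x were at 100% and the 10x samples stood at 100, 100, 5, 68.5, 0 and 100%. In the intron bin at +52023 bp all 6 samples of 10x stood at 100%, the 0x samples at 80.2, 53.8, 83.0 and 100%, and the 2x and 4x samples reached down to 30.8 and 76.1%.

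The Cd48 bin at +905 bp, in a coding exon 158 bp downstream of the curated start, was the promoter bin without repeats whose 2x mean lay furthest above 0x. The 0x samples stood at 40.4, 0, 0 and 29.9%, all 6 of 2x at 100%, those of 4x at 35.5, 75, 66.7 and 100%, and those of 10x at 52.4% at the lowest, 71.1% at the median and 100% at the highest. The groups 2x and 10x did not overlap 0x, and 4x did. How often groups fail to overlap among bins of this kind was not counted, and the bin was picked for its 2x difference. When bins with a group at 0 or 100% were admitted to the test, the 2x difference of 82.4 points (SE 8.03) was called (adjusted p = 0.00036 in limma). The 10x difference of 52.7 points (SE 11.6) had an adjusted p of 0.151 and the 4x difference of 51.7 points (SE 16.2) one of 0.654. In that wider set 1.64% of 283752 bins were called in 2x. The Cd48 promoter, for which this was the only varying bin of the wider set, was called in 2x too, as were 2.25% of 18997 promoters. The bin holds 1 CpG, and how many of the 2x samples were measured there is unknown.

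The Kit intron bin at +6463 bp was also called in that set, in 2x and 4x, with a difference of -100 points in each, and no other bin of the 9 genes was called there in 2x, 4x or 10x. Over all bins of the set 0.933% were called in 4x and 0.924% in 10x. All samples of 0x and 10x were at 100% and all samples of 2x and 4x at 0%. Each group holds a single value, which is also what 1 measured sample per group and filling would give, so the p-value does not measure replicate spread. The Kit body, with this bin in its mean, was called in 4x at -11.2 points, beside 2.39% of 20856 gene bodies. Across the 9 genes, 37 bins held a single value in every group and differed between groups.

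**Figure D4:**
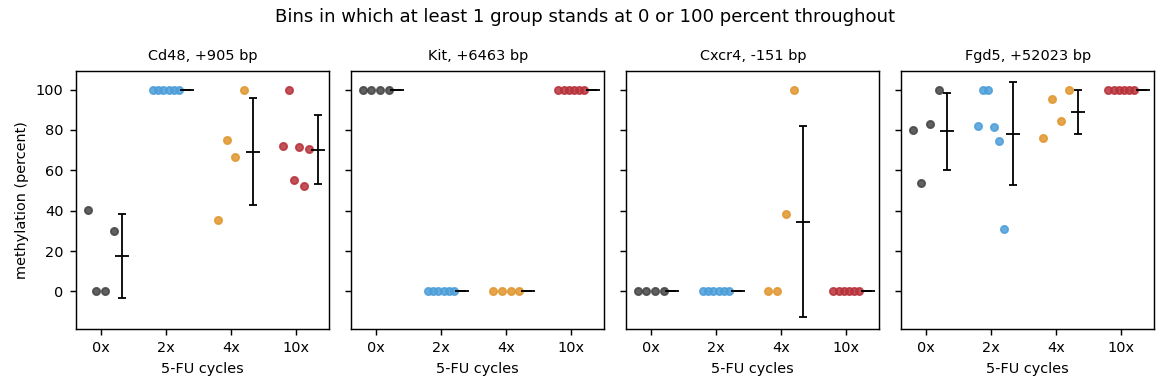
Methylation (y axis, percent) in each sample of 4 bins with at least 1 group at 0 or 100% throughout, by number of 5-FU cycles (x axis), with the mean and SD beside each group. In the Cd48 bin the 4 samples of 0x lie at or below 40.4% and all samples of 2x and 10x above it, and in the Kit bin each group holds 1 value.

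Differences between groups in bins with repeated values cannot be read as measured change. In the Tek promoter at -536 bp all samples of 0x, 2x and 4x were listed at 39.6% and all of 10x at 100%, and at -436 bp the same 3 groups were listed at 26.4% and 10x at 0%. The Cd48 promoter bin at +205 bp was listed at 49.4% in 0x, 2x and 4x and at 100% in 10x. In the Slamf1 promoter the bin at +519 bp was listed at 7.41% in 0x and at 0% in the other groups, and the bin at +619 bp at 18.3% in all samples of 0x, at 0% in 2x and 10x and at 40, 28.6, 0 and 28.6% in the 4x samples. In the Slamf1 intron bin at +4919 bp the 0x samples were at 0%, 4 of the 6 samples of 2x at 90%, the 4x samples at 22.4, 100, 100 and 100% and 10x between 58.1 and 100%. A value other than 0 or 100% was held throughout by at least 2 groups in common in 25 of the 336 bins (7.44%), the Tek and Cd48 promoter bins just given among them. A mean taken within each group gives such a shared value only where the means of those groups are equal, and how these values arose was not tested. Repeated values made up 12.9% of the member values in 0x, 20.5% for 2x, 10.3% for 4x and 10.9% for 10x.

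When all 191 bins that vary were tested as deposited, 27 (14.1%) were called in 2x, 21 (11%) for 4x, 24 (12.6%) for 10x and 19 (9.95%) for the slope. The shares over all bins tested this way were 14%, 9.96%, 10.8% and 9.23%. Of the calls, 25, 20, 23 and 17 fell in bins with a repeated value. None of the 8 bins of the main set was among them. By region, the promoters called were Cd48, Slamf1 and Tek in 2x (21.1% of all promoters tested), these and Cd34 for 10x (14.6%), and Cd48 and Tek for the slope (8.85%), and none in 4x. The flanks of Cxcr4 and Procr were called in 2x (31.4%) and that of Procr in 10x (24.2%). The gene bodies called were Cd34, Cxcr4 and Tek in 2x (32.6%), Cxcr4 and Procr for 4x (19.8%), and Cd34 for 10x (26.4%) and for the slope (17.9%). Of the 9 genes, 8 promoters, 4 flanks and 7 gene bodies were tested this way.

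With repeated values set to missing, so that each bin kept only its other values, 3 bins were called in 2x, 1 in 4x and 1 in 10x, beside 2%, 1.16% and 0.999% of all 508786 bins tested, and 1 promoter (Cd48) was called in 2x, beside 3.06% of promoters. The bins were the Cd48 and Kit bins above and the Slamf1 bin at +4919 bp, whose difference from 0x was 90 points in 2x, with 2 samples left in that group, and 81.5 points in 10x, with 4 left. All 4 samples of 0x were at 0% there, so their spread is unknown.

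**Figure D5:**
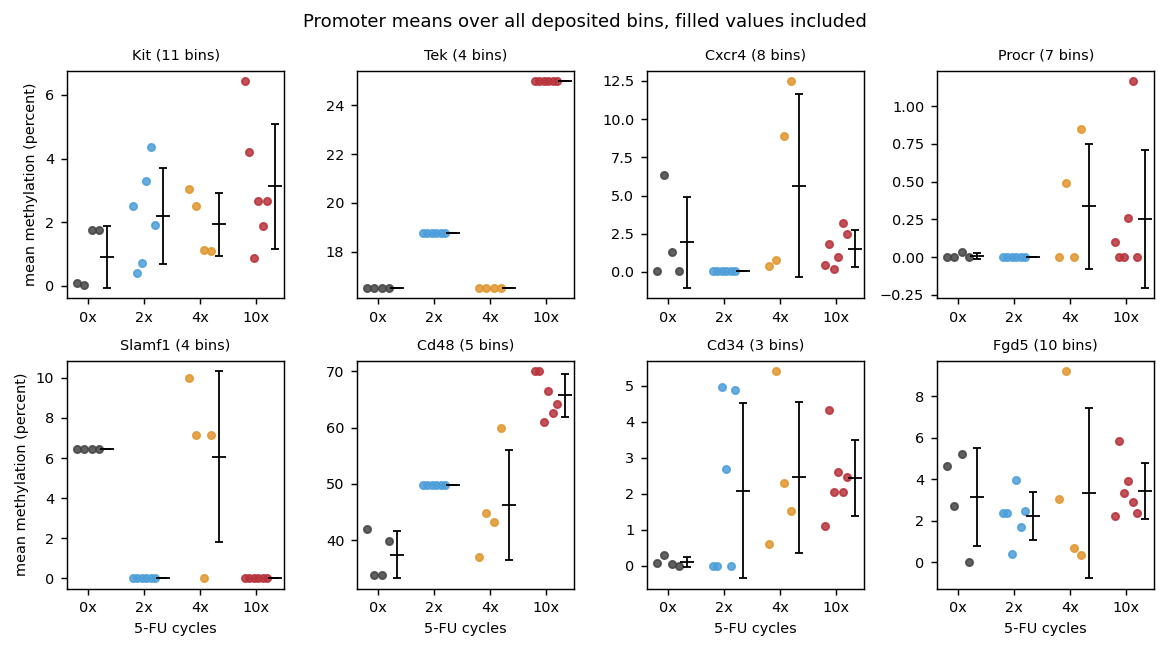
Mean promoter methylation over all deposited bins (y axis, percent, with its own scale in each panel) in each sample of 8 genes by number of 5-FU cycles (x axis), with the mean and SD beside each group. Samples of a group coincide in Tek because each of its promoter bins holds 1 value per group. The Cd48 promoter stands at 37.4% in 0x and 65.7% in 10x, filled values included.

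Promoter means over all deposited bins also mix the classes of bins. The Cd48 promoter stood at 37.4% ± 4.15 in 0x, 49.9% in 2x, 46.2% ± 9.71 for 4x and 65.7% ± 3.76 for 10x. Over its 2 bins without repeated values it stood at 58.8% ± 10.4, 100%, 84.6% ± 13.3 and 85.1% ± 8.47, and over its 3 bins with them at 23.2%, 16.5%, 20.6% ± 8.33 and 52.7% ± 3.66. Both sets of Cd48 bins were listed higher in 10x than in 0x, whereas 2x was higher in one set and lower in the other. The difference in the bins with repeated values cannot be read as measured change. Of the 2 bins without them only that at +905 bp varied, and it was picked for its 2x difference. The Fgd5 promoter stood at 3.14% ± 2.35, 2.21% ± 1.16, 3.33% ± 4.10 and 3.43% ± 1.35 in 0x, 2x, 4x and 10x over all bins. Over its 6 bins without repeats it stood at 0.523% ± 1.02, 0%, 3.53% ± 4.57 and 3.58% ± 1.06. Its 4 bins with repeated values went the other way, from 7.06% ± 5.41 in 0x to 3.21% ± 2.74 in 10x. The Cxcr4 promoter stayed between 0.0618% and 5.65% and the Procr promoter between 0 and 0.336% in the 4 groups. Gene body means of Kit, Fgd5 and Tek were high in 0x and 10x alike. That of Kit was 83.7% ± 0.229 in 0x and 83.5% ± 1.38 in 10x, that of Fgd5 90.8% ± 0.946 and 91.6% ± 1.5, that of Tek 89.0% ± 0.763 and 90.9% ± 1.46, and that of Cd48 100% in all samples. The Cxcr4 body stood lower, at 62.6% ± 1.55 in 0x, 56.9% ± 1.72 in 2x, 56.5% ± 1.69 for 4x and 60.7% ± 3.21 for 10x, and over its 8 bins without repeated values at 62.9% ± 0.563, 62.5%, 61.7% ± 2.62 and 61.4% ± 2.14.

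Related genes were counted in the same fits of promoters and gene bodies. In 10x no promoter was called in limma among 12 tested of 26 other surface markers of HSCs and multipotent progenitors, 6 of 16 ligands and partners, 1 of 9 SLAM family genes, 2 of 15 Ly6 family genes, 2 of 6 FGD family genes, 4 of 8 receptor tyrosine kinases and 5 of 20 markers of committed cells, and none of 13 chemokine receptors could be tested. The SLAM, Ly6 and FGD families include the members themselves. No gene body of these lists was called in 10x, and no promoter or gene body in 2x, in 4x or in the slope. The median 10x difference of the other surface markers was 0.41 points in promoters and 0.88 in bodies, beside 0.00297 and 0.85 over all genes tested.

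The related genes named here had an unadjusted p under 0.05, and none passed the adjustment. Their levels are means over the tested bins of each region only. Over all deposited bins, filled values included, the Thy1 body stood at 59.8% in 0x and 64.7% in 10x. The Adgrg1 body stood there at 30.8% in 0x and 32.8% in 2x, so the sign of each was opposite to that given below. The sign was the same in Cxcl12, Kitl, Prom1, Pdgfrb, Ly6h and Cd3g. Of these, the Prom1 body went from 89.1 to 88.7% and the Cd3g body from 90.6 to 88.8% in 10x. The promoter of Cxcl12, the ligand of Cxcr4, was at 9.54% ± 7.38 (SD, n = 4) in 0x and 1.85% ± 2.18 (n = 6) in 10x (adjusted p = 0.759 in limma). The promoter of Kitl, the ligand of Kit, was at 0.451% ± 0.581 in 0x and 2.34% ± 0.491 (n = 4) in 4x (adjusted p = 0.971 in limma). The gene body of Thy1, a GPI-anchored surface protein of HSCs and T cells, was at 21.5% ± 18.7 in 0x and 1.96% ± 3.02 (n = 6) in 10x (adjusted p = 0.523 in limma). That of Adgrg1, an adhesion G protein-coupled receptor, was at 8.97% ± 1.42 in 0x and 3.0% ± 3.63 (n = 6) in 2x (adjusted p = 0.998 in limma), and that of Prom1 (CD133) at 34.3% ± 1.27 in 0x and 30.3% ± 2.05 (n = 6) in 10x (adjusted p = 0.572 in limma). The promoter of Cd27, a receptor of the TNF receptor family, had a slope of 2.50 points per cycle (SE 1.09, adjusted p = 0.982 in limma) from 13.6% ± 9.48 in 0x. Over all deposited bins the Cd27 promoter stood at 11.6, 30.7, 11.6 and 18.1% in 0x, 2x, 4x and 10x, so it did not rise steadily with cycles there. The gene body of Pdgfrb, a receptor tyrosine kinase related to Kit, was at 86.6% ± 6.29 in 0x and 95.4% ± 3.59 (n = 6) in 10x (adjusted p = 0.499 in limma). That of Flt4, a receptor for vascular endothelial growth factors, had a slope of 1.218 points per cycle (SE 0.497, adjusted p = 0.944 in limma). Over all deposited bins the Flt4 body stood at 73.6, 74.6, 76.8 and 79.9% in 0x, 2x, 4x and 10x. The gene body of Ly6h was at 3.53% ± 2.51 in 0x and 10.7% ± 3.89 (n = 4) in 4x (adjusted p = 0.979 in limma). Of the markers of committed cells, the body of the T cell gene Cd3g was at 99.8% ± 0.403 in 0x and 76.2% ± 19.3 (n = 6) in 10x (adjusted p = 0.561 in limma). In Ly9, the SLAM family gene with a tested promoter, no p was under 0.05.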

How the data were processed

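RRBS was run on 20 samples of sorted HSCs. Per the labels and the methods of the study, reads were trimmed (Trim Galore 0.4.3, quality above 25) and mapped to mm10 (Bismark 0.23.1), cytosines needed a coverage above 10, and their values were averaged over 100 bp, with the group's mean given to a bin that a sample lacked. The labels also name methylKit 1.22.0. The deposited values are percent methylation, 1 per bin and sample, without reads.

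Genes and starts were taken from RefSeq on GRCm38.p6, the assembly of mm10. The bin frame was checked on chromosome 19, where 3 of 34977 bins held no CpG cytosine. limma 3.58.1 in R 4.3.3 was run on the percentages of 84131 bins, and on means per promoter, flank and gene body, with each treated group against 0x in a fit of both groups and a slope over cycles in all 20 samples. P-values were adjusted by Benjamini-Hochberg over all bins or regions. limma was tested on data simulated with known differences in 200 bins. The members, 8 lists of 104 related genes and the tests were chosen with earlier results of these data known. All members are named, with up to 4 genes of each list at an unadjusted p under 0.05; 1 item is not reported here. Alternatives changed the bins, minimum difference, spread, scale, promoter width and samples. Tables were made with pandas 2.3.3 and numpy 2.4.6 in Python 3.11.15, and figures with matplotlib 3.10.9.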

Additional observations from a re-analysis of the deposited data

Results flagged for a closer look

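In 8 of 40 groups tested, 1 sample stood apart from the others of its group (the gap to the nearest sample exceeded Dixon's 95% critical value, which chance alone passes in about 1 of 20 groups, and which ties at 0% make easier to pass). In the Kit promoter bin at -437 bp these were the 0x sample 13 at 18.2% (nearest 0.938%) and the 4x sample 19 at 0.658% (nearest 0%). In the Kit intron bin at +14463 bp it was the 2x sample 18 at 100% (nearest 26.9%), and the same sample stood at 14.7% (nearest 0%) in the Cd34 promoter bin. The 10x sample 11 stood at 90.8% (nearest 97.8%) in the Kit bin at +32563 bp and at 95.5% (nearest 98.8%) in the Fgd5 bin at -1877 bp. In the Procr bin the 2x sample 04 stood at 50% (nearest 84.6%). In the mean of the Kit body bins the 10x sample 31 stood at 40.5% (nearest 56.4%).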

How the results depend on the processing

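The counts of 0 calls held under every alternative that kept the 84131 bins: no or a 25 point minimum difference, a spread shared by all groups, a log2 ratio, trend and robust fits, the label series as a block, medians, other promoter widths, a slope without 10x and each sample left out (each count 0 to 0). A promoter placed at curated starts, added after the data were seen, also gave 0.

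Calls appeared only with other bins; their cause was not tested. With groups at 0 or 100% admitted, 2 bins were called in 2x and 1 in 4x, 1 promoter in 2x (Cd48) and 1 body in 4x (Kit). With repeated values set to missing, 3, 1 and 1 bins were called in 2x, 4x and 10x, and 1 promoter in 2x (Cd48). With all deposited bins that vary, 27, 21 and 24 bins were called in 2x, 4x and 10x and 19 in the slope, 3 promoters in 2x, 4 in 10x and 2 in the slope, 2 flanks in 2x and 1 in 10x, and 3, 2 and 1 bodies in 2x, 4x and 10x and 1 in the slope. One was the Cd34 promoter in 10x, at 3.50 points (adjusted p = 0.0184 in limma). That mean adds a bin with repeated values to the tested bin, and 14.6% of all promoters were called in 10x this way.

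Levels moved by more than their SD over all deposited bins: the Kit body to 83.7, 81.7, 82.7 and 83.5% in 0x, 2x, 4x and 10x, the Fgd5 body to 90.8% in 0x and 91.6% in 10x, the Fgd5 flank to 42.6, 41.7, 43.3 and 38.8%, and the Kit promoter to 2.20% in 2x and 1.94% in 4x. Of 1084 estimates of single bins and regions under the alternatives, each sample left out included, 80 changed sign, none of them called in the main setting.

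No paired analysis was possible because the sample numbers of the labels are not shared between groups. Depth is unknown, so a low count of CpGs or reads behind a value cannot be weighed.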
